A study of Mus musculus with 8 samples.

Results

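The genes described here are the mucins and the secreted products of goblet cells, read on Agilent mouse arrays of colon RNA. They are 10 of the 19440 genes named on the array, chosen by name, and every probe that carries one of these names, current or older, was kept. This gave 19 of the 41174 probes on the array. Secreted products are represented by 7 probes, for Muc2, Fcgbp, Clca1, Tff3 and Agr2. Membrane mucins are represented by 12 probes, for Muc1, Muc3, Muc4, Muc13 and Muc20. Clca1 stands under its older symbol Clca3 in the authors' table, and 1 probe named 4933405I11Rik there was counted with Muc4, of which that is an older symbol.

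Colon was taken from male mice of 2 groups, all on an FVB/N background, fed powdered AIN-76A as the control diet and 21 to 24 weeks old. The first group held 4 Mdr1a-/- mice whose histological injury score of the colon was high, and the other held 4 FVB/N mice in which it was low. Mice without Mdr1a lack the efflux transporter encoded by Abcb1a in every tissue and develop colon inflammation. Genotype and score changed together and the mice were picked on their score, so the effects of genotype and of injury cannot be told apart. Each mouse had its own array, on which its RNA carried Cy3 and a common reference carried Cy5. The reference, from the Swiss strain, pooled fetal RNA with that of liver, kidney, colon and small intestine, and dyes were not swapped. Values are log2(sample / reference), and a log2 fold change is the Mdr1a-/- mean minus the mean of the arrays labelled FVB/N.

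The colon is covered by a mucus gel that goblet cells secrete. Muc2 is the gel-forming mucin of that layer, and Fcgbp, Clca1 and Tff3 are released with it from the same granules. Agr2 is a disulfide isomerase of the endoplasmic reticulum that goblet cells need to make Muc2. Membrane mucins do not form gel: they are anchored in the apical membrane of epithelial cells, where they make up the glycocalyx and can signal through their cytoplasmic tails.

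The promoters of 3 genes are shown first, because Muc4 and Fcgbp carry every call among the 10 genes, and Muc2 is the gel-forming mucin beside which they are read. Each runs from 250 bases before to 50 bases after the annotated start, 5′ to 3′ on the gene's strand, and is taken from RefSeq for GRCm38.p6. They lie at chr16:32735636-32735935 (plus strand, Muc4), chr7:28070986-28071285 (plus strand, Fcgbp) and chr7:141690090-141690389 (plus strand, Muc2). Capitals mark matches, on either strand, to the motifs searched.
Muc4: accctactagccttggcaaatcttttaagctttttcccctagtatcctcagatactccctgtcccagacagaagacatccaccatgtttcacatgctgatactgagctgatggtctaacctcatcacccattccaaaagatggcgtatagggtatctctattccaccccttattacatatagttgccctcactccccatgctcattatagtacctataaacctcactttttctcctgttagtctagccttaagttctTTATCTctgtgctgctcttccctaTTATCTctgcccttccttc
Fcgbp: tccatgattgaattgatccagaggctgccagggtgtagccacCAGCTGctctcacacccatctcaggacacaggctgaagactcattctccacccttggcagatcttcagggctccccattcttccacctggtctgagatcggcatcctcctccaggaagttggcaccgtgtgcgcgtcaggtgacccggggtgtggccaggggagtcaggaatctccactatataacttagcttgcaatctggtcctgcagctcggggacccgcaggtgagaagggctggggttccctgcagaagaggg
Muc2: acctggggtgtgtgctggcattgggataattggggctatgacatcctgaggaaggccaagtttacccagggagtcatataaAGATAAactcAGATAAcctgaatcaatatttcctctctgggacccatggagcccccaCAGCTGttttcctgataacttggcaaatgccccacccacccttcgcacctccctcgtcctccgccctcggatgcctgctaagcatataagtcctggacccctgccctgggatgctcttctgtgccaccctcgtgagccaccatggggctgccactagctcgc

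The motifs were searched on both strands, and no matches overlap in these 3 sequences. The GATA letters AGATAA, held by 11.2% of all 32851 promoters of this length, occur 2 times each in the Muc4 and Muc2 windows. The Atoh1 E-box letters CAGCTG, held by 16.3% of promoters, occur once each in the Fcgbp and Muc2 windows. None of the 3 windows holds the STAT letters TTCNNNGAA (8.3% of promoters), the NF-kB letters GGG and TTTCC with any 2 bases between (1.63%), the interferon response letters GAAA and GAAA with any 2 bases between (3.44%) or the CDX letters TTTATG (11.9%). The GC content is 43.7% in the Muc4 window, 58.3% in the Fcgbp window and 55.3% in the Muc2 window. A promoter entry was found for 8 of the 10 genes, the other 2 being Tff3 and Clca1. These matches describe letters and were not tied to binding.

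Per array, 67% to 86.3% of probes exceeded the background, set as the 95th percentile of the negative control spots in Cy3. Of the 19 probes, 16 were above background on all 8 arrays. Abcb1a was read first as a check of the labels. Its probe (A_51_P155445) stood at -0.89, -0.95, -0.70 and -0.97 in Mdr1a-/- replicates 1 to 4 and at -0.80, 0.01, -0.49 and -0.62 on the arrays labelled FVB/N. The groups overlapped, and the log2 fold change of -0.40 ± 0.19 (SE, n = 4 per group) did not pass (limma adjusted p = 0.362). For Abcb1a the authors' deposited table has -1.62. The protocol lists the slides of each group. On a listed slide were 3 of the 4 Mdr1a-/- arrays, all but replicate 3, and 0 of the 4 arrays labelled FVB/N. These 4 are therefore called the arrays labelled FVB/N, and every direction below rests on that label.

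Muc4 was higher and Fcgbp was lower in Mdr1a-/- mice, and none of the other 8 genes passed the test. Of the 19 probes, 3 were called higher (all Muc4) and 2 lower (both Fcgbp), at a limma adjusted p under 0.05 over all probes. Over the whole array, 1.53% of probes were called higher and 1.45% lower. The 4 values of one group did not overlap the 4 of the other for 7 of the 19 probes, against 10.3% of all probes. These 7 were 5 probes of Muc4, all higher, and the 2 of Fcgbp. In whole colon, fewer cells of a type and less RNA per cell cannot be told apart.

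**Figure D1:**
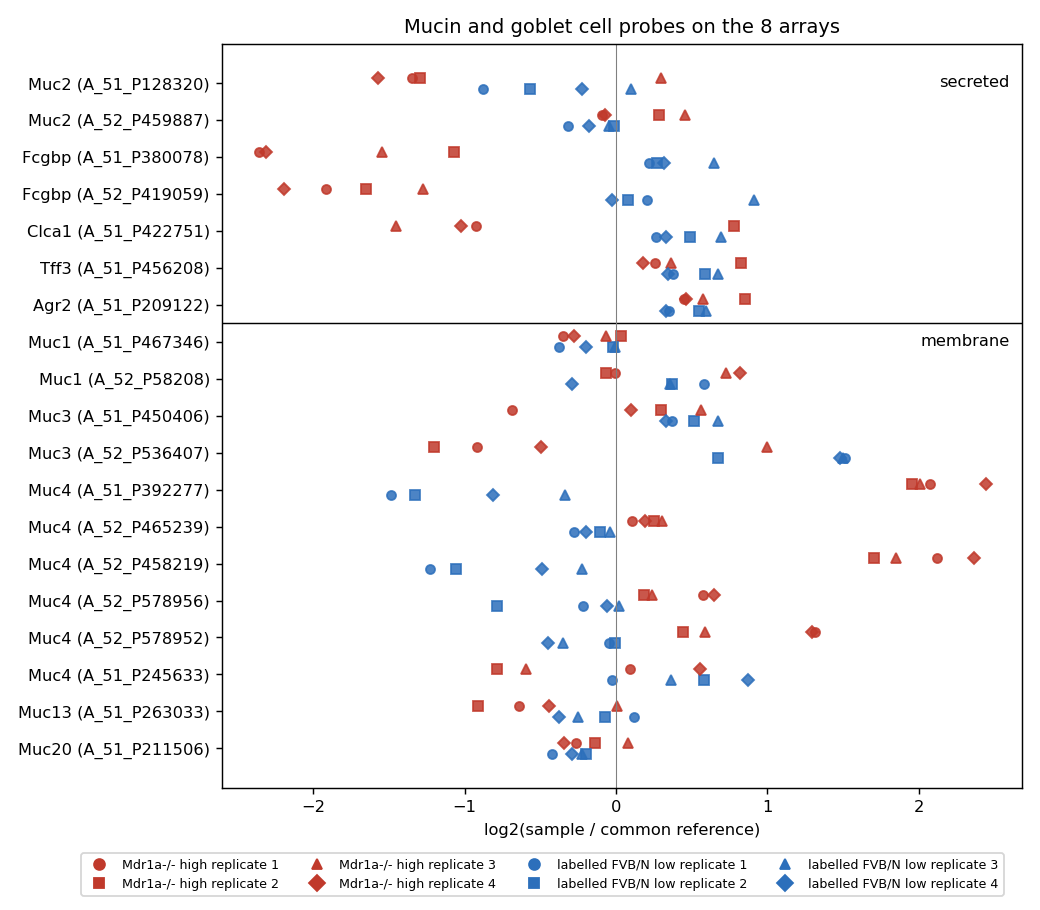
Log2(sample / reference) of the 19 probes on each of the 8 arrays (x axis), with Mdr1a-/- high mice in red and arrays labelled FVB/N in blue, the shape giving the replicate number. The 2 Fcgbp probes lie left of, and 5 of the 6 Muc4 probes right of, the arrays labelled FVB/N without overlap, and in the first Muc2 probe Mdr1a-/- replicate 3 (0.30) lies apart from the other 3.

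Among the secreted products, Fcgbp is the IgG Fc binding protein, a large partner of Muc2 in the gel. Its first probe (A_51_P380078) stood at -2.36, -1.07, -1.55 and -2.31 in Mdr1a-/- replicates 1 to 4 and at 0.22, 0.27, 0.65 and 0.32 on the arrays labelled FVB/N. Every Mdr1a-/- array was below all of those. Fcgbp by this probe had a log2 fold change of -2.19 ± 0.28 (SE, n = 4 per group, limma adjusted p = 0.00524). The Cy3 signal of this probe was near saturation, at a foreground intensity of 50000 or more, on 3 arrays labelled FVB/N of 4. The reference channel was near saturation on all 8 arrays, so the size of the fall is read from the second probe.

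The second Fcgbp probe (A_52_P419059) was near saturation on no array in either channel. Its Mdr1a-/- values were -1.92, -1.65, -1.28 and -2.19, and its values on the arrays labelled FVB/N were 0.20, 0.08, 0.91 and -0.03. Again the groups did not overlap. It was 4.15-fold lower in Mdr1a-/- mice, with a log2 fold change of -2.05 ± 0.26 (SE, n = 4 per group, limma adjusted p = 0.00442). Both probes share an accession. The authors' deposited table, whose fold changes are read here as log2 although its description calls them log10, gives -1.94 and -1.92.

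Fcgbp was also lower on each scan day that held both groups. The first probe differed by -2.15 on day 2 and by -1.84 on day 3, and the second by -2.34 and -1.30. Day 3 held 1 Mdr1a-/- array, replicate 3, and 2 arrays labelled FVB/N, so its values rest on a single Mdr1a-/- mouse. With scan day as a block, the log2 fold changes were -2.03 ± 0.31 and -1.93 ± 0.28 (SE, limma adjusted p = 0.0442 and 0.036). Day 2 alone, with 2 arrays per group, kept the size but not the call (limma adjusted p = 0.272 and 0.189).

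Muc2, the gel-forming mucin itself, did not pass. Its brighter probe (A_51_P128320) stood at -1.35, -1.30, 0.30 and -1.57 in Mdr1a-/- replicates 1 to 4 and at -0.88, -0.57, 0.10 and -0.23 on the arrays labelled FVB/N. Mdr1a-/- replicates 1, 2 and 4 were below every array labelled FVB/N, and replicate 3 was above them all. Muc2 by this probe differed by -0.59 ± 0.40 (SE, n = 4 per group, limma adjusted p = 0.569), and the 95% interval ran from -1.48 to 0.31. Without replicate 3 it was -1.01 ± 0.24 (SE, limma adjusted p = 0.0612). On day 2, without replicate 3, the difference was -0.93, and on day 3, where replicate 3 is the only Mdr1a-/- array, it was 0.69. In raw Cy3 foreground the same probe read 11641, 8525, 48583 and 10554 in Mdr1a-/- mice and 22581, 22937, 37447 and 39193 on the arrays labelled FVB/N. The reference channel of this probe was near saturation on 7 of the 8 arrays.

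The second Muc2 probe (A_52_P459887), designed to another accession, was dimmer and leaned the other way. It ran from -0.09 to 0.46 in Mdr1a-/- mice and from -0.32 to -0.01 on the arrays labelled FVB/N. Its log2 fold change of 0.28 ± 0.17 (SE, n = 4 per group) did not pass either (limma adjusted p = 0.496). The 2 Muc2 probes thus differed in sign in this fit, and neither settles a direction for the gene. The authors' deposited table gives -0.57 and -0.04, with adjusted p of 0.393 and 0.92.

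The array pattern of the brighter Muc2 probe was shared most closely by Hgfac (root-mean-square difference 0.265 over the 8 arrays), Gdpd1 (0.283), Adgrg1 (0.283), Slc12a8 (0.283) and Clstn1 (0.287). They were taken from 20124 probes above background on all arrays, after each probe was centred on its own mean. For scale, the Muc2 probe itself spread by 0.655 around its mean in the same measure. These genes were picked for their likeness to Muc2, which is a description with no test.

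Clca1, a secreted metalloprotease of the mucus gel, was low in 3 of the 4 Mdr1a-/- mice. Its probe (A_51_P422751) stood at -0.92, 0.78, -1.45 and -1.02 in Mdr1a-/- replicates 1 to 4 and at 0.26, 0.49, 0.69 and 0.33 on the arrays labelled FVB/N. The ratio of replicate 2 was above that of every array labelled FVB/N, and the other 3 Mdr1a-/- mice were below them all. In Cy3 intensity, however, replicate 2 lay within the range of the arrays labelled FVB/N, so it is not read as higher than they were. With all 8 arrays the log2 fold change of -1.10 ± 0.42 (SE, n = 4 per group) did not pass (limma adjusted p = 0.242). Without replicate 2 it was -1.58 ± 0.19 (SE, limma adjusted p = 0.00559), a fit that drops the mouse going the other way. Leaving out any other single array gave no call (limma adjusted p = 0.322 to 0.446). Clca1 was near saturation on all 4 arrays labelled FVB/N, at Cy3 intensities of 55398 to 62079, and on Mdr1a-/- replicate 2, at 55642. The reference was near saturation on all 8 arrays, so neither the size of the difference nor its SE and p-values are settled. Clca1 has relatives in the Clca family, and whether the probe also reads any of them was not tested.

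Tff3, a trefoil peptide that supports repair of the mucosa, stood at 0.26, 0.83, 0.36 and 0.18 in Mdr1a-/- mice and between 0.34 and 0.67 on the arrays labelled FVB/N. It was near saturation on 3 Mdr1a-/- arrays and on all 4 arrays labelled FVB/N, and the fitted difference was -0.09 ± 0.18 (SE, n = 4 per group, limma adjusted p = 0.876). Agr2 was near saturation in Cy3 and in the reference on all 8 arrays, and no fold change is given for it. Its ratios were 0.45 to 0.85 in Mdr1a-/- mice and 0.33 to 0.59 on the arrays labelled FVB/N. At this brightness a difference in either gene may not show.

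**Figure D2:**
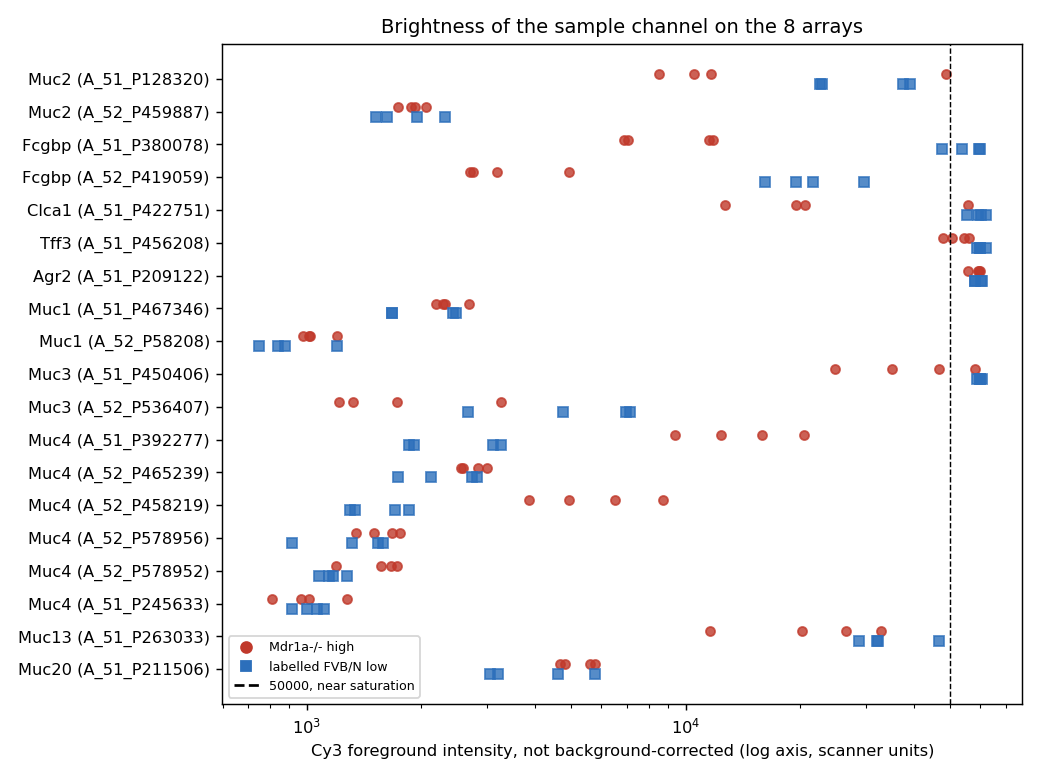
Cy3 foreground intensity of the 19 probes on each array, in scanner units on a log axis and not background-corrected, with Mdr1a-/- high mice as red circles, arrays labelled FVB/N as blue squares and a dashed line at 50000. Agr2 lies beyond the line on all 8 arrays, and Clca1 and the first Muc3 probe lie beyond it on all 4 arrays labelled FVB/N but on 1 Mdr1a-/- array each.

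Among the membrane mucins, Muc4 was the one that passed the test. Muc4 is a large transmembrane mucin that binds the receptor ErbB2. Its brightest probe (A_51_P392277) stood at 2.07, 1.95, 2.01 and 2.45 in Mdr1a-/- replicates 1 to 4 and at -1.48, -1.33, -0.34 and -0.81 on the arrays labelled FVB/N. The 2 groups were separated by more than the spread of either. The log2 fold change was 3.11 ± 0.25 (SE, n = 4 per group, limma adjusted p = 0.000994), that is 8.64-fold higher. In raw Cy3 foreground it read 9366 to 20509 in Mdr1a-/- mice and 1866 to 3261 on the arrays labelled FVB/N, far from saturation in both.

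A second Muc4 probe (A_52_P458219) gave nearly the same picture. It stood at 2.12, 1.71, 1.85 and 2.37 in Mdr1a-/- mice and at -1.23, -1.05, -0.22 and -0.49 on the arrays labelled FVB/N. No arrays overlapped, and Muc4 by this probe was 6.77-fold higher, with a log2 fold change of 2.76 ± 0.25 (SE, n = 4 per group, limma adjusted p = 0.00147). Both Muc4 probes kept their size within scan days, at 2.92 and 2.64 on day 2 and 3.08 and 2.62 on day 3, where replicate 3 is the only Mdr1a-/- array. With scan day as a block they were 2.99 and 2.63 (limma adjusted p = 0.0146 and 0.0157). The authors' deposited table gives 2.84 and 2.17.

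The other Muc4 probes were dimmer than the brightest one and gave smaller differences. Not all were dimmer than the second: A_52_P465239 had a mean log2 intensity over both channels of 11.42, against 11.27 for A_52_P458219. The third (A_52_P578952) stood at 1.32, 0.44, 0.59 and 1.29 in Mdr1a-/- mice and between -0.45 and 0.00 on the arrays labelled FVB/N. It was 2.18-fold higher, with a log2 fold change of 1.12 ± 0.23 (SE, n = 4 per group, limma adjusted p = 0.0365). With scan day as a block this probe stood at 0.97 and did not pass (limma adjusted p = 0.18), and its call was also lost when any of 6 single arrays was left out. The next probes (A_52_P578956 and A_52_P465239) did not overlap between groups but did not pass, at 0.67 ± 0.21 and 0.37 ± 0.13 (SE, limma adjusted p = 0.142 and 0.192). The probe listed under the older symbol (A_51_P245633) was above background on 1 Mdr1a-/- array and 2 arrays labelled FVB/N, and its log2 fold change of -0.63 ± 0.31 (SE, limma adjusted p = 0.397) has the opposite sign. The accession of that probe differs from those of the other 5, and whether it reads the same transcript was not tested.

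Muc1, a membrane mucin of most glandular epithelia, stood at -0.35, 0.03, -0.06 and -0.28 in Mdr1a-/- mice and at -0.38, -0.02, -0.01 and -0.20 on the arrays labelled FVB/N (A_51_P467346). The groups lay on top of each other. The difference was -0.01 ± 0.15 (SE, n = 4 per group, limma adjusted p = 0.981), and its 95% interval ran from -0.36 to 0.33. The second Muc1 probe (A_52_P58208) was above background on 1 array of each group, and its 0.11 ± 0.27 (SE) carries little information. The array pattern of the first Muc1 probe was closest to 4930526F13Rik (root-mean-square difference 0.0444), Olfr772 (0.0459), Guca1b (0.049), Ralgapa1 (0.0517) and Stmn4 (0.0525), against a spread of 0.152 of the Muc1 probe itself.

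Muc3 is a membrane mucin of the intestinal brush border. Its names Muc3 and Muc3a belong to near-identical sequences, so its probes may read either. The brighter probe (A_51_P450406) stood at -0.69, 0.30, 0.57 and 0.10 in Mdr1a-/- mice and between 0.33 and 0.67 on the arrays labelled FVB/N, where it was near saturation on all 4. It did not pass, at -0.41 ± 0.25 (SE, n = 4 per group, limma adjusted p = 0.524). The reference was near saturation on all 8 arrays and the sample on 1 Mdr1a-/- array, so no fold is given.

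The dimmer Muc3 probe (A_52_P536407) was far from saturation. It stood at -0.91, -1.20, 1.00 and -0.49 in Mdr1a-/- replicates 1 to 4 and at 0.67 on the array labelled FVB/N replicate 2, the other 3 of that label lying between 1.48 and 1.51. As with Muc2, Mdr1a-/- replicate 3 stood highest of its group, and it was the one that overlapped the arrays labelled FVB/N. With all 8 arrays the log2 fold change of -1.70 ± 0.44 (SE, n = 4 per group) missed the threshold (limma adjusted p = 0.0816), and without replicate 3 it was -2.16 ± 0.26 (SE, limma adjusted p = 0.00563). It was -2.57 on day 2 and -0.08 on day 3, where replicate 3 is the only Mdr1a-/- array. The authors' deposited table gives -1.30 with an adjusted p of 0.0185.

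Muc13, a small membrane mucin abundant in the colon, stood at -0.64, -0.91, 0.01 and -0.44 in Mdr1a-/- mice and between -0.38 and 0.12 on the arrays labelled FVB/N. Its difference of -0.35 ± 0.21 (SE, n = 4 per group, limma adjusted p = 0.505) did not pass, and its 95% interval ran from -0.83 to 0.12. Muc13 also had the reference near saturation on 7 of the 8 arrays. Muc20, a membrane mucin that lies next to Muc4 on chromosome 16, stood at -0.34 to 0.08 in Mdr1a-/- mice and at -0.42 to -0.20 on the arrays labelled FVB/N. Its difference was 0.12 ± 0.14 (SE, n = 4 per group, limma adjusted p = 0.784). Its 95% interval of -0.20 to 0.44 lies below the interval of the brightest Muc4 probe (2.54 to 3.68).

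**Figure D3:**
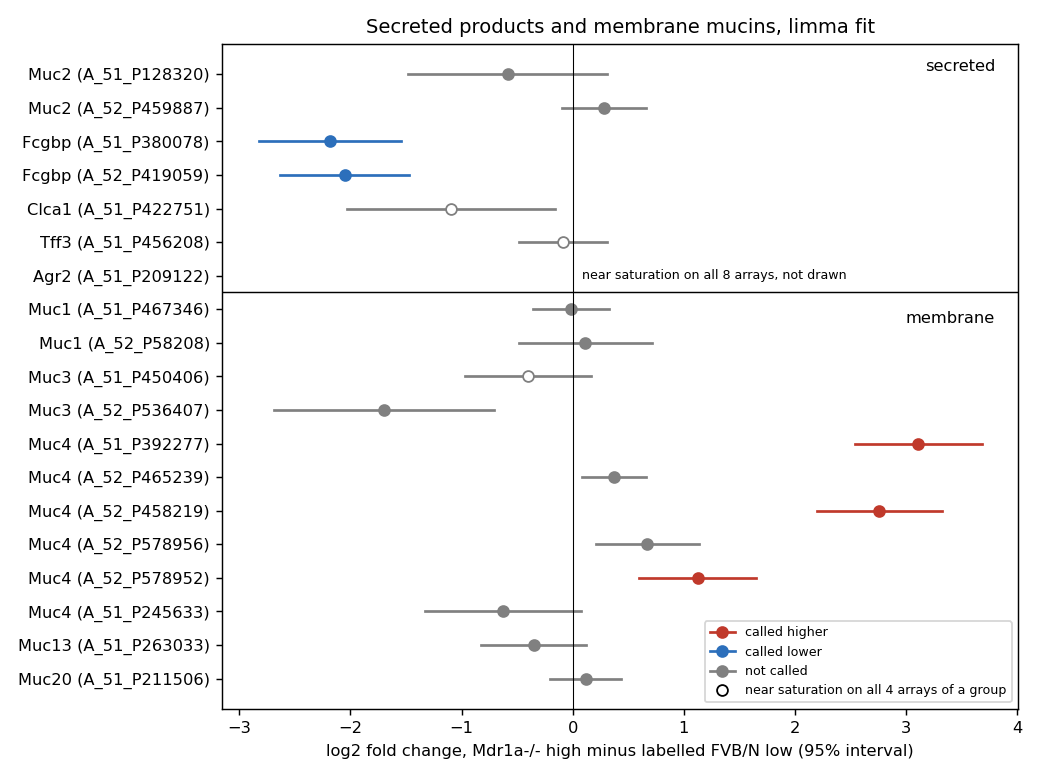
Log2 fold change (Mdr1a-/- high minus arrays labelled FVB/N) of 18 of the 19 probes with its 95% interval from the limma fit, Agr2 being left out as near saturation on all 8 arrays, secreted products above and membrane mucins below the line. The intervals of Fcgbp lie wholly left of 0 and those of the 3 called Muc4 probes wholly right, some intervals of probes not called also leave out 0 because calls are adjusted over all probes, and open circles mark probes near saturation on all 4 arrays of a group.

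Set side by side, the secreted products had 0 of 7 probes called higher and 2 called lower, with a median log2 fold change of -0.84 without Agr2 (-0.59 with its fitted value). The membrane mucins had 3 of 12 called higher and 0 lower, with a median of 0.11. Taking the brightest probe of each gene, the medians were -0.84 over 4 secreted products without Agr2 and -0.01 over 5 membrane mucins, while the median of all probes was 0.02. Each class thus held a single gene that was called by its brightest probe, Fcgbp and Muc4. Both secreted medians of -0.84 lie between the values of Clca1 and the brighter Muc2 probe, neither of which passed. Near saturation limits Clca1 in both channels and that Muc2 probe in the reference, so the size of these medians is not settled.

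Averaged over the brightest probes without Agr2, the secreted class stood at -1.09, -0.19, -0.58 and -1.18 in Mdr1a-/- mice and between 0.00 and 0.53 on the arrays labelled FVB/N. The membrane class stood at 0.03, 0.25, 0.52 and 0.30 in Mdr1a-/- mice and between -0.36 and -0.03 on the arrays labelled FVB/N. Neither mean overlapped between groups, but both rested on 1 gene. Without Fcgbp as well, the secreted mean ran from -0.81 to 0.10 in Mdr1a-/- mice and from -0.08 to 0.49 on the arrays labelled FVB/N. Without Muc4 the membrane mean ran from -0.49 to 0.15 and from -0.13 to 0.06. Both pairs of ranges overlapped, and the difference between the classes was not tested.

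The Mdr1a-/- mice also differed among themselves. Over the 16 probes above background on all arrays, replicate 3 was the highest of the 4 for 8 probes and the lowest for 1. Replicate 1 was the highest for 1 probe and the lowest for 6. Replicate 3 was scanned on another day than the other 3, but replicate 4 was likewise the only Mdr1a-/- array of its day. Replicate 3 was also the Mdr1a-/- array that was not on a listed slide. Whether mouse, slide or day sets replicate 3 apart was not tested.

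Other goblet cell genes were read from lists, 1 brightest probe per gene. Beside the list counts here and below stand the 1.53% of all probes called higher and the 1.45% called lower, shares of probes and not of genes. Of 14 genes listed as other goblet cell secretions, 1 was called higher and 0 lower. Their median was 0.19 without the 2 that were near saturation on all 8 arrays. The gene called was Clca4a, a relative of Clca1, at -0.05, -0.14, 0.24 and 0.43 in Mdr1a-/- mice and -3.11 to -2.37 on the arrays labelled FVB/N (log2 fold change 2.97 ± 0.20, SE, n = 4 per group, limma adjusted p = 0.000933). Whether goblet cells make or secrete Clca4a was not tested, and the other 13 genes were not called. Like Tff3 and Agr2, 3 of the 14 were near saturation on all 4 arrays labelled FVB/N. Of 8 other mucins listed, 5 were measured and 0 were called, the one with the smallest p being the membrane mucin Muc15 (0.45 ± 0.27, SE, limma adjusted p = 0.496). Their median was 0.08.

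Of 18 genes of mucus secretion and maturation, 0 were called higher and 2 lower, with a median of -0.24. Capn9, a calpain of the digestive tract, stood at -0.46 to 0.15 in Mdr1a-/- mice and at 0.80 to 1.25 on the arrays labelled FVB/N, a difference of -1.17 ± 0.18 (SE, n = 4 per group, limma adjusted p = 0.0104). Tgm3, a transglutaminase, which crosslinks proteins, stood at -0.60 to -0.16 and at 0.14 to 1.49, a difference of -1.37 ± 0.29 (SE, n = 4 per group, limma adjusted p = 0.0379). Both lay below the arrays labelled FVB/N without overlap, as Fcgbp did. Among the genes not called, Nlrp6 lay lower (-1.14) and Tgm2 and Unc13d higher (0.87 and 0.51), also without overlap (limma adjusted p = 0.102, 0.128 and 0.145). Of 16 regulators of the goblet cell lineage, 1 was called lower and 0 higher, with a median of -0.23. It was Hnf4a, a nuclear receptor of intestinal epithelium rather than of goblet cells alone, at -1.13 ± 0.24 (SE, n = 4 per group, limma adjusted p = 0.0401). The goblet cell factors Atoh1 and Spdef, named here after their values were seen, did not pass, at -0.29 ± 0.15 and 0.01 ± 0.17 (SE, limma adjusted p = 0.415 and 0.99). Foxa2, Cdx1 and Hes1 did not pass either but lay lower without overlap, at -1.07, -0.78 and -0.59 (limma adjusted p = 0.0585, 0.0556 and 0.151). No regulator lay higher without overlap. The mean of the regulators ran from 0.27 to 0.39 in Mdr1a-/- mice and from 0.42 to 0.85 on the arrays labelled FVB/N.

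**Figure D4:**
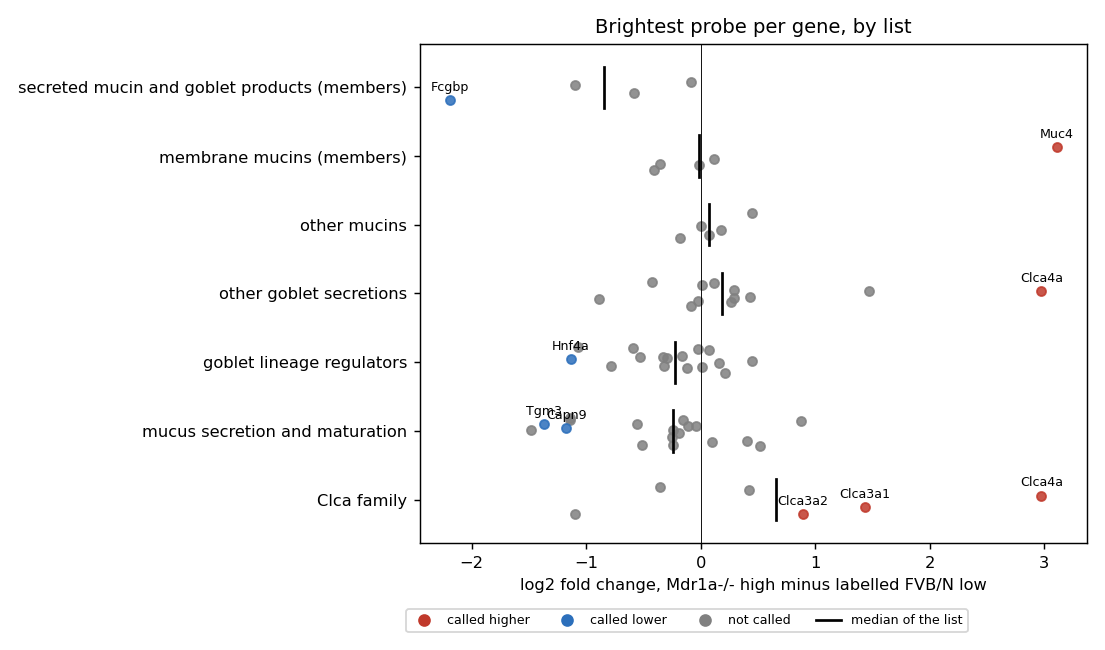
Log2 fold change (Mdr1a-/- high minus arrays labelled FVB/N) of the brightest probe of each gene in 7 lists, without genes near saturation on all 8 arrays, with called genes coloured and named and the median of each list as a vertical line. Fcgbp (-2.19) and Muc4 (3.11) lie apart from the other genes of their lists, and the Clca family, added after the data were seen, spans from Clca1 (-1.10) to Clca4a (2.97).

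Markers of other cells moved with these results, and their part in them was not tested. Of 10 absorptive colonocyte markers, 4 were lower and 0 higher (Slc16a1, Slc26a3, Cyp2c55 and Car4, from -2.54 to -1.24), and the mean over the list ran from -1.03 to -0.49 in Mdr1a-/- mice and from -0.01 to 0.29 on the arrays labelled FVB/N. Of 10 enteroendocrine markers, 4 were lower and 0 higher (Chga, Chgb and Insl5, from -1.75 to -1.24, and Scg2, which was above background on no Mdr1a-/- array), with a mean of -0.54 to -0.23 against 0.08 to 0.51. Of 10 general epithelial markers, 1 was lower (Elf3, -1.26 ± 0.20, SE, limma adjusted p = 0.0126), with a mean of 0.00 to 0.20 against 0.23 to 0.42. Fcgbp was thus one of several epithelial genes that fell. Of the general epithelial markers, 5 were near saturation on all 4 arrays labelled FVB/N, 2 of them on all 8 arrays, and a fall in these may not show.

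Of 9 neutrophil markers measured, 3 were higher and 0 lower, namely S100a8, S100a9 and Retnlg. Retnlg was above background on no array labelled FVB/N and S100a8 on 2 of them, and S100a8 and S100a9 were near saturation on 3 Mdr1a-/- arrays, so no sizes are given. The mean of the list ran from 1.09 to 2.46 in Mdr1a-/- mice and from -0.84 to -0.15 on the arrays labelled FVB/N. Of 7 Paneth cell markers measured, 3 were higher and 0 lower (Pla2g2a and Mmp7, at 3.41 and 2.92, and Lyz1, which was near saturation on all 4 Mdr1a-/- arrays), with a mean of -0.41 to 0.66 against -1.65 to -1.46. None of the 10 tuft cell, 10 smooth muscle, 10 adipocyte or 9 pancreatic acinar markers passed, the smallest p being those of Plcg2, Lmod1, Car3 and Cpa1 (limma adjusted p = 0.15, 0.114, 0.161 and 0.165). The acinar mean varied between mice in both groups, from -1.42 to 1.04 in Mdr1a-/- mice and from -0.01 to 1.62 on the arrays labelled FVB/N, and Mdr1a-/- replicate 1 was the highest of its group. Itln1 was on both the Paneth cell list and that of other goblet cell secretions.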

How the data were processed

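Colon RNA of 8 mice was read on 2-colour Agilent arrays, 1 array per mouse. Per the file headers, each deposited array file holds mean spot intensity and mean local background intensity for Cy5 and Cy3. They also hold a normalized log2 ratio by the authors, which local background subtraction and loess reproduced to within 3e-13 as reference over sample, where the deposited description says the reverse, so its sign was turned. The authors' deposited table gives fold changes with a raw and an adjusted p-value per spot. Its description calls them log10, but their slope on the log2 fold changes of the arrays was 0.87 without background correction and 0.621 with normexp, against 0.301 for log10 values, so they are read as log2. The submitters' processing notes name limma with no version. The image analysis software is not stated in these sources.

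All fits used limma 3.58.1 (R 4.3.3) on these intensities. After normexp background correction (offset 50), loess was run within each array with control spots at weight 0, and spots of 1 probe were averaged, which left 41174 probes. Groups were compared by lmFit and eBayes, two-sided and without covariates, with Benjamini-Hochberg adjustment over all probes and a threshold of 0.05. The files hold no flags, so a spot is called near saturation at a foreground of 50000 or more. Above background means a Cy3 net signal over the 95th percentile of 314 negative control spots.

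Probes were named through RefSeq for GRCm38.p6 (32563 of 41174). The arrays name no genome build, so probe coordinates are left out. Named are every probe of the 10 genes, Abcb1a, the called members of each list (at most the 4 with the smallest p, or the 1 with the smallest p where none passed) and, for Muc2 and Muc1, the 5 genes with the nearest array pattern. The genes and lists were chosen with earlier results of these data known, and the Clca family, the posterior Hox genes and the fit on the Cy3 channel alone were added after seeing the data. The alternatives tried numbered 21, of which 8 leave out 1 array each.

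In data simulated from the spread of the 8 arrays, the fit recovered 35% of 100 probes shifted by 1 log2 unit and 95% of 100 shifted by 2, with 7 false calls among 41174. The p-values measure the spread between 4 mice per group, and this number of arrays limits the precision.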

Additional observations from a re-analysis of the deposited data

Results flagged for a closer look

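In the brighter Muc2 probe (A_51_P128320), Mdr1a-/- replicate 3 stood at 0.30 and the other 3 Mdr1a-/- mice between -1.57 and -1.30. Its gap to the nearest mouse was 0.854 of the range of its group, beyond Dixon's 95% critical value for 4 samples. In the dimmer Muc3 probe (A_52_P536407), the array labelled FVB/N replicate 2 stood at 0.67 and the other 3 arrays of that label between 1.48 and 1.51, a gap of 0.96 of the range. The rule was applied to 40 groups of 4 arrays and met by 2, and chance alone meets it in about 1 group in 20.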

How the results depend on the processing

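Over the members, 397 combinations of probe and alternative were computed: 365 kept direction and side of the threshold, 14 lost a call, 3 gained one and 15 turned the sign of a value that was not called, all in Muc1 and Tff3. The first 2 Muc4 probes and both Fcgbp probes kept their call in 20 of 21 alternatives each, the exception being scan day 2 alone, where limma called 0 members higher and 0 lower (3 and 4 at an unadjusted p under 0.05) and 0 probes in all in either direction (2091 higher and 2109 lower at an unadjusted p under 0.05). Fewer arrays enter that fit. The third Muc4 probe lost its call in 10 of 21 alternatives, at adjusted p up to 0.413, among them without Mdr1a-/- replicate 1 (0.0938) or 4 (0.112) and without the array labelled FVB/N replicate 1 (0.0759), 2 (0.0638), 3 (0.11) or 4 (0.109). Clca1 was called only without Mdr1a-/- replicate 2, and the dimmer Muc3 probe without Mdr1a-/- replicate 3 or with array weights (-1.83, adjusted p = 0.0229). Over all probes, 628 higher and 598 lower calls became 1081 and 939 with array weights, 133 and 115 in the fit blocked on scan day, and 310 and 286 with the replicate block. Leaving out 1 array gave 250 to 783 higher and 247 to 675 lower calls. They were 352 and 340 without Mdr1a-/- replicate 1, 250 and 247 without replicate 4, and 339 and 317, 403 and 410, 285 and 289, and 303 and 309 without the arrays labelled FVB/N replicates 1, 2, 3 and 4. Same-numbered mice of the 2 groups did not deviate together (correlations 0.06, 0.11, 0.03 and -0.03), and 1 of 8 arrays correlated best with its own number, so the numbers do not pair the mice. The cause of these moves was not tested. Near saturation limits Agr2, Tff3, Clca1, the brighter Muc3 probe and the first Fcgbp probe, and in the reference alone the brighter Muc2 probe and Muc13, and low signal limits the second Muc1 probe.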

Other observations

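Clca1 stands in a cluster of Clca genes on chromosome 3, and 3 of its relatives were called higher. Of 7 genes of the family, 6 were measured and 0 were called lower, with a median log2 fold change of 0.66. Besides Clca4a, Clca3a1 stood at 0.66 to 1.02 in Mdr1a-/- mice and at -0.83 to -0.30 on the arrays labelled FVB/N, a difference of 1.43 ± 0.17 (SE, n = 4 per group, limma adjusted p = 0.00307). Clca3a2 stood at 0.07 to 0.59 and at -0.71 to -0.38, a difference of 0.89 ± 0.16 (SE, n = 4 per group, limma adjusted p = 0.0199). Neither pair of groups overlapped. The family was picked after Clca4a had been seen, and whether these related genes hybridise to each other's probes was not tested.

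Muc4 was higher while its neighbours on chromosome 16 were not called. In order along the annotation, Zdhhc19, Tfrc and Tnk2 lie on one side, with log2 fold changes of -0.01, -0.02 and 0.10, and Muc20 and Rubcn on the other, with 0.12 and -0.07. Smbd1, between the last 2, was not measured.

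Some genes of mucus secretion, picked after their values had been seen, stood high in Mdr1a-/- replicate 3, as Muc2 did. Bcas1, a goblet cell protein, stood at -0.26, 0.28, 1.58 and -0.19 in Mdr1a-/- replicates 1 to 4 and at 1.56 to 2.13 on the arrays labelled FVB/N (-1.48 ± 0.37, SE, limma adjusted p = 0.0729). Best2, an anion channel of goblet cells, stood at -0.16, 0.28, 1.77 and 0.10 and at 1.24 to 1.99 (-1.14 ± 0.39, SE, limma adjusted p = 0.189). In both, replicate 3 was within the range of the arrays labelled FVB/N and the other 3 were below it.

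The same mouse stood apart in Hoxd13, a homeobox gene of the distal gut, at 2.54 against -0.56 to -0.24 in the other 3 Mdr1a-/- mice and 2.82 to 3.72 on the arrays labelled FVB/N. Of 8 posterior Hox genes, 3 were called lower and 0 higher, with a median of -0.58: Hoxb13 (-2.08 ± 0.23), Hoxa13 (-1.11 ± 0.19) and Hoxd13 (-2.96 ± 0.62), with SE and limma adjusted p = 0.00254, 0.0142 and 0.0381. Hoxa13 was lowest in replicate 3, at 0.58 against 0.91 to 1.11 in the other 3, and Hoxb13 was highest there, at 1.77 against 0.67 to 1.34. The part of the colon that each sample came from is not given in the labels, and its part in these values was not tested. These genes were chosen after their values had been seen.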
